A study of Homo sapiens with 20 samples.

Results

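The genes that make, store, recapture and break down catecholamines were followed in NGP cells, a human neuroblastoma cell line. The 9 genes were chosen by name as TH, DDC, DBH, PNMT, GCH1, SLC18A1, SLC18A2, SLC6A2 and MAOA, out of 27697 mRNA and lncRNA genes tested. For each gene the estimated counts were summed over its transcripts. The cells were exposed either to 8 µM nutlin-3, given as the racemic mixture, or to ethanol as vehicle, with 10 samples in each condition. NGP is a single established line with amplified MYCN and MDM2, which both conditions share. The exposure time is not given in the sources used here. The study's methods describe the samples as biological replicates grown in culture flasks, and the p-values measure the spread between these samples of 1 line.

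Neuroblastoma arises from the sympathoadrenal lineage, whose cells produce noradrenaline. Tyrosine is turned into L-DOPA by tyrosine hydroxylase, into dopamine by aromatic L-amino acid decarboxylase and, inside vesicles, into noradrenaline by dopamine beta-hydroxylase, after which phenylethanolamine N-methyltransferase can form adrenaline. Vesicular transporters load the amines into storage vesicles, the noradrenaline transporter takes released amine back up, and monoamine oxidase A deaminates what remains in the cytosol. MDM2 is the protein to which nutlin-3 binds.

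Sequencing depth was similar in the conditions, with 14455477 to 19532971 estimated read pairs per vehicle sample and 15078052 to 17442896 per nutlin sample. MDM2, the check of the treatment, rose from 245 ± 33.2 CPM (counts per 1000000 counts, scaled by TMM, mean ± SD, n = 10) to 5564 ± 382 CPM (SD, n = 10), and every nutlin sample lay above every vehicle sample. All 8 transcription factors of the noradrenergic lineage on the marker list were expressed. HAND2, for example, measured 1039 ± 61.2 CPM in vehicle and 882 ± 46.0 CPM in nutlin (SD, n = 10 each). After nutlin 7 of these 8 fell and 1 rose, whereas 3 fell when libraries were scaled by size only. The glial marker SOX10 and the T cell marker CD3E did not reach the minimum count for testing.

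These sequences are shown because the results below refer to them: an exon of DDC that separated transcripts moving in opposite directions, and the promoters of DBH and SLC18A2. In the first line capitals mark exon 3 of DDC, on the minus strand of hg38 at chr7:50539915-50540028, between the last 20 bases of exon 2 and the first 20 of exon 4. The second line joins exons 2 and 4 directly. All these bases are coding.
DDC with exon 3: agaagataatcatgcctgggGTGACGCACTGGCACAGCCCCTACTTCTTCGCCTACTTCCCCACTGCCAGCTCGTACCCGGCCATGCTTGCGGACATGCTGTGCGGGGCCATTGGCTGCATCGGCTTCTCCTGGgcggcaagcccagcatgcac
DDC without exon 3: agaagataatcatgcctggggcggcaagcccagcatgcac

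Promoter sequences of RefSeq on GRCh38.p14, from 250 bases before to 50 bases after the start of the gene, were matched for 4 of the 9 genes (DDC, DBH, SLC18A2 and MAOA). Capitals mark matches to TGACGTNN, the core letters of a cyclic AMP response element, searched on both strands. The DBH window is chr9:133636113-133636412 and the SLC18A2 window is chr10:117240864-117241163, both on the plus strand.
DBH promoter: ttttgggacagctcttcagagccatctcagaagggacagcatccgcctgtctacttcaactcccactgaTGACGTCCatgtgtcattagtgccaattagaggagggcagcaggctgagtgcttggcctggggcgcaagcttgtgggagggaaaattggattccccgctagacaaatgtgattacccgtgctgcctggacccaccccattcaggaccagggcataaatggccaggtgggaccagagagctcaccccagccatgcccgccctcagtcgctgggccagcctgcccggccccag
SLC18A2 promoter: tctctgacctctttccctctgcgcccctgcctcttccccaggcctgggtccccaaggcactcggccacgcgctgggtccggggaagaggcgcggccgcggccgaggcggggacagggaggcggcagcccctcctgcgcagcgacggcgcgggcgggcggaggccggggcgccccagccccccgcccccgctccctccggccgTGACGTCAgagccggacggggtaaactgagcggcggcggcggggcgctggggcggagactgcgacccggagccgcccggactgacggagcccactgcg
The match in DBH began at base -181 and that in SLC18A2 at base -48, counted from the start of the gene, and the DDC and MAOA windows held none. Of 27305 promoters, 8.30% held TGACGTNN and 1.98% held the full palindrome TGACGTCA, which overlaps it and occurred here in SLC18A2 alone among the 4. GGGCGG, the letters of a GC box, occurred once in DBH, 5 times in SLC18A2 and 4 times in MAOA, and in 44.6% of all promoters. None of the 4 windows held TGANTCA (7.76% of all promoters), CACGTG (7.43%), TAATTA (4.98%) or TATAAA (11.95%).

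Of the 9 genes, 4 rose after nutlin (TH, DDC, SLC18A1 and, measured by a single retained-intron transcript, SLC18A2), 1 fell (PNMT) and 4 did not pass the test (DBH, GCH1, SLC6A2 and MAOA), by edgeR's quasi-likelihood test at 5% FDR. Over all genes tested, 58.8% were called, 32.3% higher and 26.5% lower, and the share of members called was near this. That background includes many genes with few counts. Of 15168 genes averaging 1 CPM or more, 5284 were called higher and 6875 lower, against 4 and 0 of the 8 members at that level. At that level members were thus called less often than other genes. With the size factors of DESeq2, with DESeq2 itself and with a minimum of 10 counts 5 members were called higher, MAOA being added, and with library size only 6 were, MAOA and DBH being added. The TMM factors ran from 0.879 to 0.973 in vehicle and from 1.013 to 1.096 in nutlin, and with library size only 11560 genes were called higher and 5514 lower, against 8935 and 7340. In such bulk samples, fewer cells of a type and less RNA per cell cannot be told apart. In 3 members every nutlin sample lay apart from every vehicle sample, as in 28.8% of all genes. The median log2 fold change (LFC) was 0.07 over the members and 0.19 over all genes tested. Over the 15168 genes averaging 1 CPM or more it was -0.08.

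**Figure D1:**
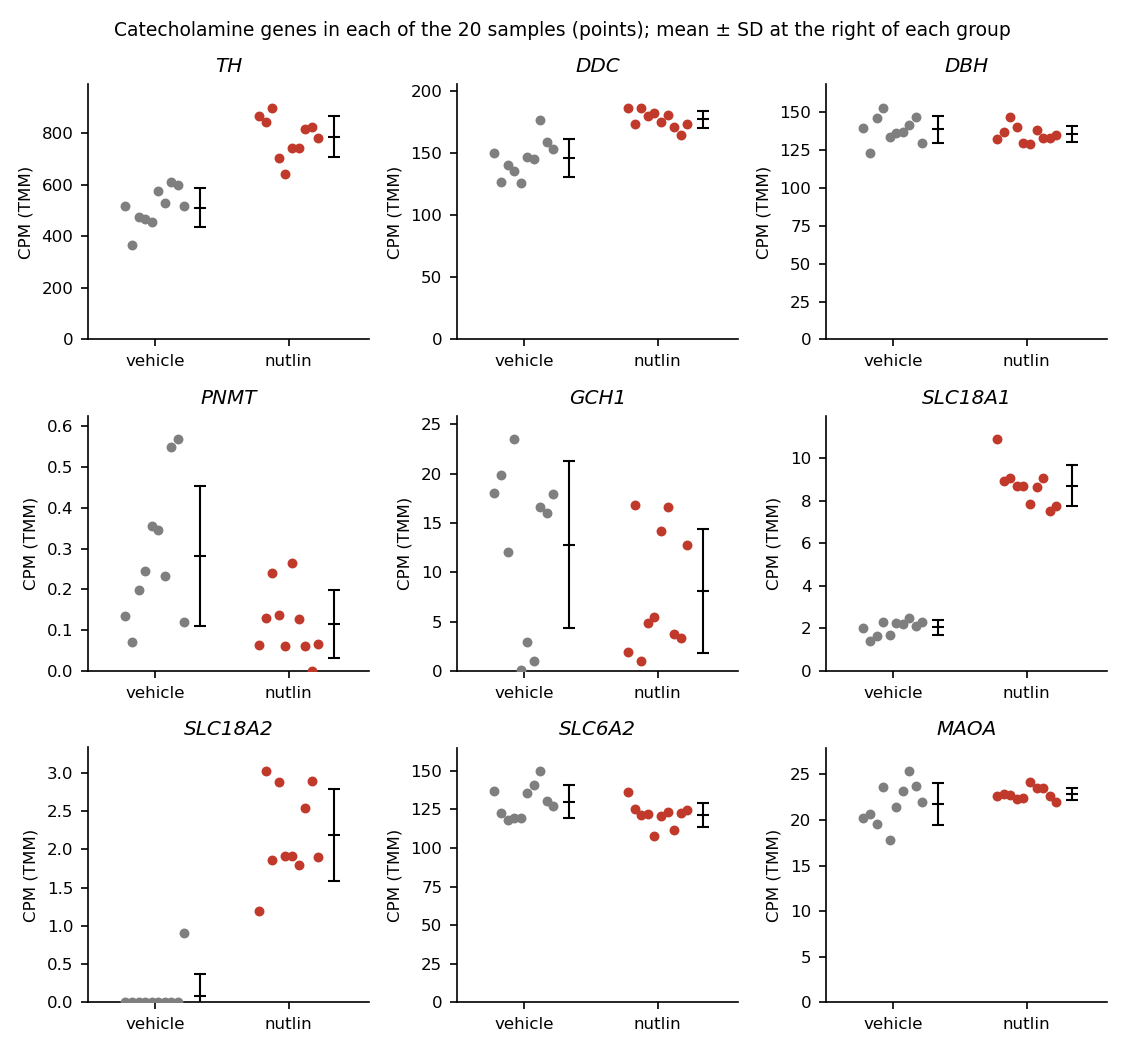
CPM (scaled by TMM, linear axes from 0) of the 9 genes in the 10 vehicle and 10 nutlin samples. Points are samples and the bar beside each group is its mean ± SD. TH, SLC18A1 and SLC18A2 do not overlap between conditions, GCH1 spreads from near 0 to 23.5 CPM within vehicle, and SLC18A2 is at 0 in 9 vehicle samples.

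TH (ENSG00000180176, chr11:2163929-2171815, minus strand, GRCh38) encodes tyrosine hydroxylase, the rate-limiting enzyme of the pathway. Its vehicle samples ran from 366 to 610 CPM with a median of 517 CPM, and its nutlin samples from 642 to 898 CPM with a median of 799 CPM. The lowest nutlin sample (replicate 6) lay above the highest vehicle sample (replicate 10). The LFC was 0.62 ± 0.07 (SE), a 1.54-fold rise, with an adjusted p of 6.2e-09 by edgeR.

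DDC (ENSG00000132437, chr7:50458436-50565405, minus strand) encodes the decarboxylase of the next step. It measured 126 to 177 CPM in vehicle (median 146 CPM) and 165 to 187 CPM in nutlin (median 177 CPM). The groups overlapped: 5 nutlin samples lay above all vehicle samples, and vehicle replicate 10, at 177 CPM, lay within the nutlin range. The LFC was 0.28 ± 0.05 (SE, adjusted p = 4.9e-06 by edgeR).

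DBH (ENSG00000123454, chr9:133636363-133659329, plus strand) encodes the enzyme that forms noradrenaline. It measured 123 to 153 CPM in vehicle (median 138 CPM) and 129 to 147 CPM in nutlin (median 134 CPM), and all nutlin samples fell within the vehicle range. The LFC of -0.03 ± 0.04 (SE, adjusted p = 0.44 by edgeR) had an approximate 95% interval from -0.10 to 0.04, and its sign turned with the scaling.

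PNMT (ENSG00000141744, chr17:39667981-39670475, plus strand), which encodes the enzyme of the adrenaline step, was close to the detection limit. Its samples held at most 8 counts in vehicle and 4 in nutlin, with totals of 42 and 18 counts over the 10 samples of each condition. The values ran from 0.07 to 0.57 CPM in vehicle (median 0.24 CPM) and from 0 to 0.26 CPM in nutlin (median 0.10 CPM). The groups overlapped, with 5 nutlin samples below all vehicle samples. The LFC was -1.22 ± 0.42 (SE, adjusted p = 0.014 by edgeR). A minimum of 10 counts removed the gene from the test, and with the replicate number as a block the LFC was -1.28 with an adjusted p of 0.064. The same 16 samples without the block gave an LFC of -1.29 and an adjusted p of 0.024.

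GCH1 (ENSG00000131979, chr14:54842008-54902826, minus strand) encodes GTP cyclohydrolase, which opens the synthesis of tetrahydrobiopterin, the cofactor of tyrosine hydroxylase. It spread widely between samples of the same condition. Vehicle samples ran from 0.07 to 23.5 CPM (median 16.3 CPM) and nutlin samples from 0.96 to 16.9 CPM (median 5.14 CPM). The groups overlapped almost completely, and the LFC of -0.67 ± 0.46 (SE, adjusted p = 0.22 by edgeR) had an approximate 95% interval from -1.56 to 0.23.

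The counts of GCH1 were mirrored by those of 1 transcript of 2923 bases that the annotation used here does not list (ENST00000622544), and that therefore entered no gene. Vehicle replicate 7 held 0.09 estimated counts per 1000000 for GCH1 and 21.0 for this transcript, while vehicle replicate 6 held 20.05 and 0.34. In nutlin, replicate 3 held 0.91 and 16.3, and replicate 8 held 16.3 and 0.16. The sum of both was much steadier than either, at 17.5 to 21.1 in vehicle and 14.8 to 21.9 in nutlin.

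**Figure D2:**
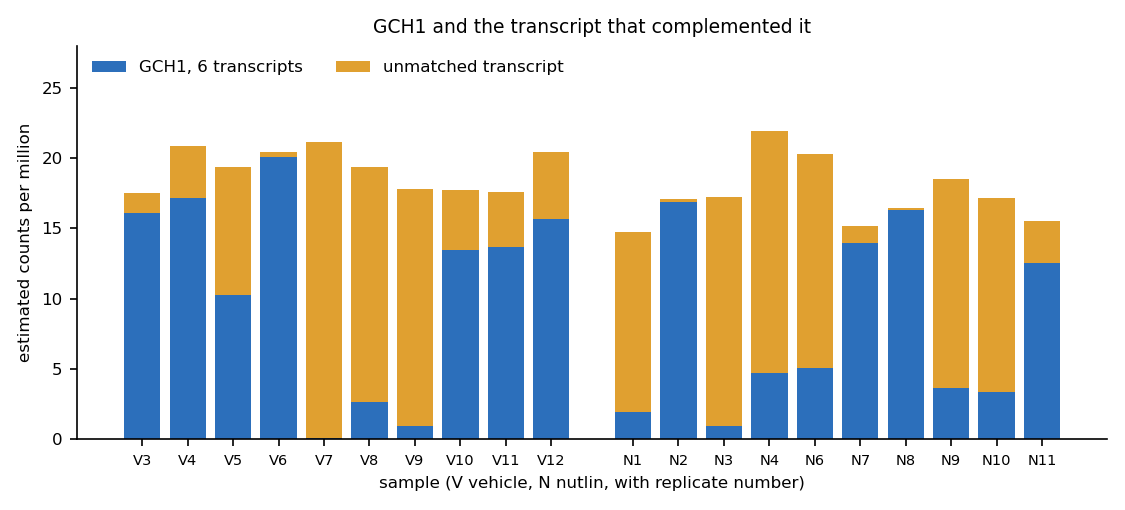
Estimated counts per 1000000 (no TMM) in each sample, stacked for the 6 transcripts of GCH1 and the unmatched transcript. The stacks stay between 14.8 and 21.9 while the GCH1 portion runs from 0.09 to 20.05.

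Adding this transcript left 7.98% of the within-condition variance of GCH1, against 48.5% for the next best of 198962 transcripts tried. For the other 8 members the best such partner left 31.7% to 51.5%. The gene to which the transcript belongs was not assigned. With its counts added, a choice made after seeing the data, GCH1 measured 22.3 ± 1.82 CPM in vehicle and 17.8 ± 2.61 CPM in nutlin (SD, n = 10 each), with 8 nutlin samples below all vehicle samples. The LFC was then -0.32 ± 0.07 (SE, adjusted p = 0.00017 by edgeR). The transcript was picked for lowering the within-condition variance, which is the spread this test uses. The SE and adjusted p are therefore partly set by that choice, and the call is no support for a fall of GCH1.

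SLC18A1 (ENSG00000036565, chr8:20144855-20183206, minus strand) encodes the transporter typical of endocrine cells, VMAT1. It measured 1.42 to 2.48 CPM in vehicle (median 2.17 CPM) and 7.55 to 10.9 CPM in nutlin (median 8.69 CPM), without overlap. Its LFC was 2.08 ± 0.09 (SE, adjusted p = 5.6e-18 by edgeR), a 4.23-fold rise.

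SLC18A2 (ENSG00000165646, chr10:117241093-117279430, plus strand) encodes the transporter typical of neurons, VMAT2. The files held for it, among transcripts matched to the annotation, only SLC18A2-201, a retained-intron transcript, so its values are those of that transcript and the protein-coding mRNA was not analysed here. The mRNA may be among the 7862 transcripts that entered no gene. It had 0 counts in 9 vehicle samples and 14.5 estimated counts, or 0.90 CPM, in vehicle replicate 12. The nutlin samples held 18.8 to 47.0 estimated counts each, from 1.19 to 3.03 CPM with a median of 1.92 CPM. All 10 nutlin samples lay above vehicle replicate 12. The LFC was 4.37 ± 0.48 (SE, adjusted p = 3.2e-09 by edgeR). The fitted rise of 20.7-fold rests on the counts of vehicle replicate 12, the only ones in that condition.

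SLC6A2 (ENSG00000103546, chr16:55655988-55707645, plus strand) encodes the noradrenaline transporter, NET. Its vehicle samples ran from 118 to 150 CPM (median 129 CPM) and its nutlin samples from 108 to 136 CPM (median 122 CPM), with 2 nutlin samples below all vehicle samples. The LFC of -0.10 ± 0.04 (SE) missed the threshold (adjusted p = 0.056 by edgeR). Leaving out nutlin replicate 1, which at 136 CPM was the highest of its group, gave -0.12 (adjusted p = 0.022 by edgeR), and leaving out vehicle replicate 4, 6 or 7 also ended in a call (adjusted p = 0.041, 0.034 and 0.034 by edgeR).

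MAOA (ENSG00000189221, chrX:43654907-43746817, plus strand) encodes monoamine oxidase A. It measured 17.8 to 25.4 CPM in vehicle (median 21.7 CPM) and 22.01 to 24.1 CPM in nutlin (median 22.6 CPM), the nutlin samples lying within the vehicle range. The LFC was 0.07 ± 0.05 (SE, adjusted p = 0.24 by edgeR). It was called higher with the size factors of DESeq2 (LFC = 0.12, adjusted p = 0.048 by edgeR) and with a minimum of 10 counts (LFC = 0.15, adjusted p = 0.0092 by edgeR).

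**Figure D3:**
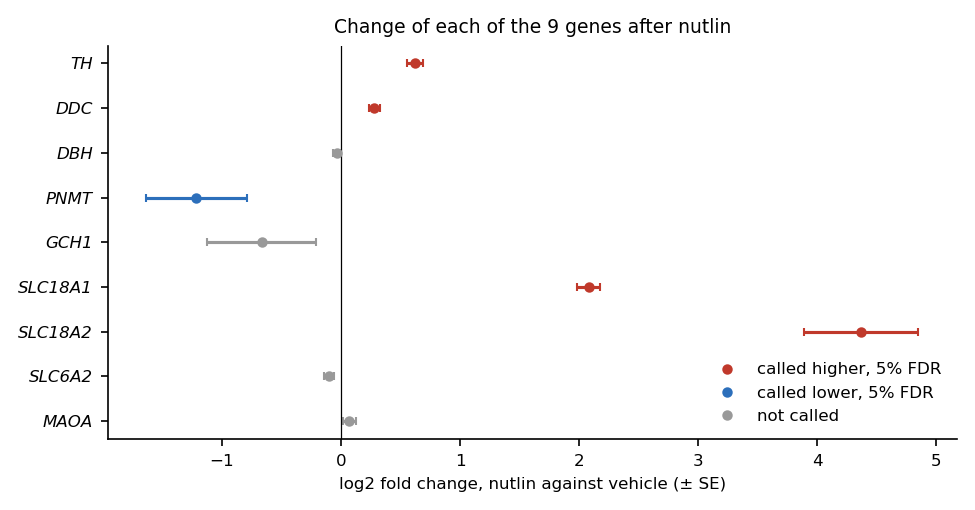
LFC of nutlin against vehicle with its SE, from edgeR, for the 9 members. Red points were called higher, blue lower and grey not called at 5% FDR. SLC18A2 at 4.37 lies farthest to the right among the members, PNMT at -1.22 farthest to the left, and DBH, SLC6A2 and MAOA lie within 0.10 of 0.

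Levels were compared between genes on the TPM scale, which accounts for transcript length. TH stood highest in vehicle at 470 ± 73.9 TPM, followed by DDC at 90.9 ± 9.46, DBH at 57.7 ± 4.11 and SLC6A2 at 54.3 ± 6.11 TPM (SD, n = 10 each). MAOA at 6.72 ± 0.87, GCH1 at 5.29 ± 3.29, SLC18A1 at 1.23 ± 0.31, PNMT at 0.44 ± 0.31 and SLC18A2 at 0.02 ± 0.07 TPM made up the lower part. TH did not overlap DDC, DDC did not overlap DBH, and SLC6A2 did not overlap MAOA. The value of SLC18A2 is that of its retained-intron transcript alone and that of GCH1 leaves out the transcript that mirrored it, so the places of these genes are those of the values in the files and may differ for the whole genes. DBH and SLC6A2 overlapped, as did each neighbour from MAOA down to SLC18A2.

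After nutlin the upper 5 kept their order, with TH at 745 ± 97.0, DDC at 108 ± 5.17, DBH at 56.2 ± 3.89, SLC6A2 at 49.8 ± 5.31 and MAOA at 7.16 ± 0.86 TPM (SD, n = 10 each). SLC18A1 at 4.84 ± 0.82 TPM then stood before GCH1 at 4.14 ± 2.74 TPM, and SLC18A2 at 0.57 ± 0.17 before PNMT at 0.17 ± 0.12 TPM. Both exchanged neighbours overlapped, and with the limits on GCH1 and SLC18A2 just given no change of order is read from them. SLC18A2 did not overlap GCH1.

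**Figure D4:**
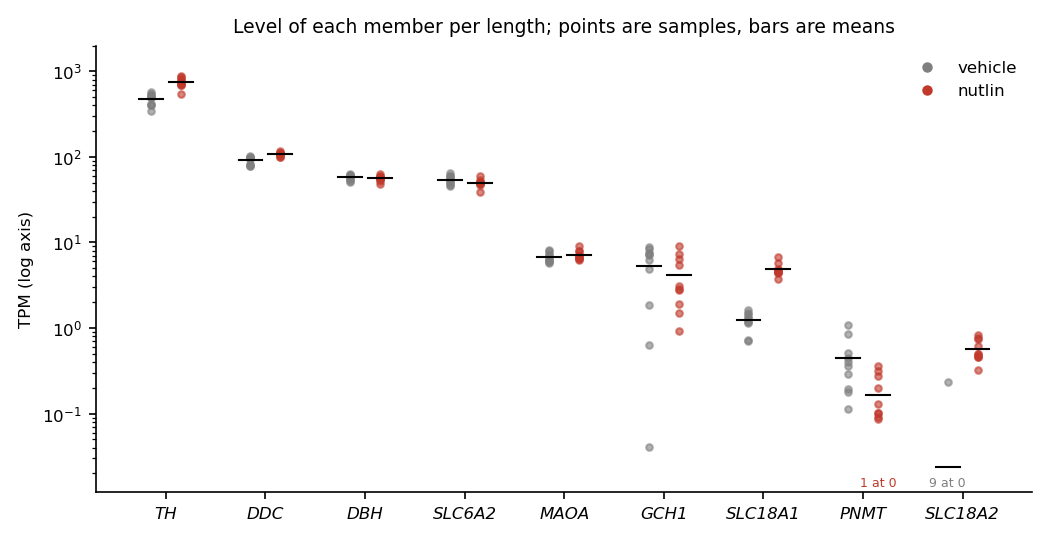
TPM of each member on a log axis in vehicle and nutlin samples, ordered by the vehicle mean. Points are samples and bars are means, and samples at 0 are counted at the foot of the plot. TH lies above DDC in all samples, at 345 to 573 TPM in vehicle and 550 to 869 TPM in nutlin.

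The transcripts of the members were tested within a fit over all 52346 transcripts that passed a minimum count. Of these 49.1% were called. Of the 60 transcripts of the members in the files, 32 passed the minimum, and 14 rose, 1 fell and 17 were not called. Fewer than 5 vehicle samples reached the minimum for 5 of the 32, and 4 of these (TH-208, DDC-202, SLC18A2-201 and MAOA-204) are among the 14 that rose, so that they passed mainly through the condition where they were high. The splitting of reads between transcripts of a gene is an estimate from kallisto whose error is not in the test. Transcripts were scaled by the TMM factors of their own fit, so small LFCs of transcripts and genes are not on 1 scale. SLC18A2, counted by 1 transcript, had an LFC of 4.37 as a gene and 4.48 as a transcript.

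DDC showed transcripts moving in opposite directions. DDC-201, with 480 codons, contains the exon 3 shown above. It measured 42.1 to 67.6 CPM in vehicle and 85.7 to 113 CPM in nutlin, without overlap, and rose by an LFC of 0.82 ± 0.08 (SE, adjusted p = 1.9e-08 by edgeR). DDC-214, with 442 codons, skips that exon of 114 bases. It measured 56.9 to 81.5 CPM in vehicle and 51.3 to 66.9 CPM in nutlin, with overlap, and fell by 0.21 ± 0.06 on the log2 scale (SE, adjusted p = 0.0078 by edgeR). Both use a first exon whose 3' end lies at base 50561014 of chromosome 7. DDC-202, a shorter coding transcript that also holds exon 3, averaged 0.51 CPM in vehicle and 2.03 CPM in nutlin.

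Summed in TPM over the 7 transcripts with exon 3 and the 2 without it, the share with exon 3 was 45.5% to 52.0% in vehicle (median 49.6%) and 61.3% to 69.9% in nutlin (median 64.6%). Every nutlin sample lay above every vehicle sample, with means of 49.2% and 65.4%. This share and the others given for MAOA and TH were chosen after the transcript values were seen, and were not tested.

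**Figure D5:**
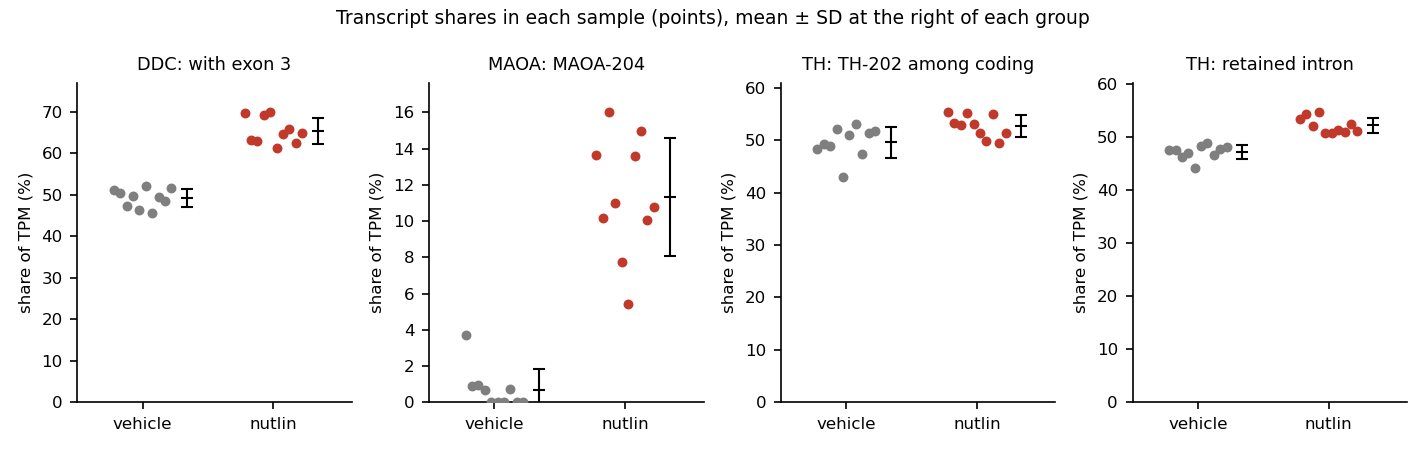
Shares of TPM (percent, axes from 0) in each sample, with mean ± SD beside each group. The panels give DDC transcripts with exon 3 among those with and without it, MAOA-204 in MAOA-204 and MAOA-201, TH-202 among the 4 coding TH transcripts, and retained-intron transcripts among all TH transcripts. The conditions overlap in the TH-202 panel only.

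The 2 MAOA transcripts above the minimum differed in pattern. MAOA-201, the main coding transcript of 527 codons, measured 19.7 ± 2.21 CPM in vehicle and 18.5 ± 1.25 CPM in nutlin (SD, n = 10 each, LFC = -0.09 ± 0.06 SE, adjusted p = 0.28 by edgeR). MAOA-204 carries 394 codons. Its first exon reaches upstream to chrX:43654907-43656414, past the first exon of MAOA-201 at chrX:43656299-43656414, and it holds a further untranslated exon at chrX:43657862-43657969. MAOA-204 had 0 counts in 5 vehicle samples and at most 0.96 CPM in the others, while the nutlin samples held 1.66 to 4.44 CPM. Since it reached the minimum count mainly through the nutlin samples, its test is not given. Its share of the TPM of both transcripts was 0% to 3.70% in vehicle and 5.46% to 16.02% in nutlin.

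TH had 10 transcripts above the minimum, of which 7 rose, TH-208 included. The largest counts were those of TH-202, with 403 codons and without the exons 2, 8 and 9 of TH-206, and TH-206 itself, with 528 codons. TH-202 rose from 150 ± 24.1 to 244 ± 27.5 CPM (SD, n = 10 each, LFC = 0.70 ± 0.09 SE, adjusted p = 8.3e-07 by edgeR). TH-206 rose from 143 ± 19.1 to 225 ± 22.6 CPM (SD, n = 10 each, LFC = 0.65 ± 0.07 SE, adjusted p = 2.0e-07 by edgeR). TH-203, with 497 codons, measured 44.1 ± 9.25 and 45.1 ± 9.09 CPM (SD, n = 10 each, LFC = 0.03 ± 0.13 SE, adjusted p = 0.86 by edgeR).

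The 3 retained-intron transcripts of TH rose by LFCs of 0.88 (TH-211), 0.82 (TH-209) and 1.01 (TH-210). Their joint share of the TPM of TH was 44.1% to 48.9% in vehicle and 50.9% to 54.8% in nutlin, without overlap. The share of TH-202 among the 4 coding transcripts was 43.0% to 53.02% in vehicle and 49.5% to 55.3% in nutlin, with overlap.

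Of the 8 SLC6A2 transcripts above the minimum, 2 rose. SLC6A2-208, which codes for 617 residues, rose from 6.53 to 10.1 CPM on average (LFC = 0.63 ± 0.13 SE, adjusted p = 0.00037 by edgeR), and SLC6A2-207 from 4.01 to 5.83 CPM (LFC = 0.54 ± 0.18 SE, adjusted p = 0.015 by edgeR). SLC6A2-206, which held the most counts, starts inside the gene at base 55671671 and measured 75.8 ± 5.46 and 73.4 ± 7.87 CPM (SD, n = 10 each, adjusted p = 0.53 by edgeR). DBH-202 held nearly all counts of DBH, at 129 ± 7.53 and 133 ± 4.67 CPM (SD, n = 10 each, LFC = 0.04 ± 0.03 SE, adjusted p = 0.33 by edgeR). SLC18A1-202, the main transcript of SLC18A1, rose by an LFC of 2.39 ± 0.36 (SE, adjusted p = 1.0e-05 by edgeR).

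The 3 antisense RNAs named for members rose. DBH-AS1 rose from 3.63 ± 0.68 to 5.36 ± 0.95 CPM (SD, n = 10 each, LFC = 0.57 ± 0.11 SE, adjusted p = 6.1e-05 by edgeR). SLC18A2-AS1 rose from 0.02 to 0.29 CPM (LFC = 3.11 ± 0.54 SE, adjusted p = 1.0e-05 by edgeR) and DDC-AS1 from 0.03 to 0.12 CPM (LFC = 1.84 ± 0.63 SE, adjusted p = 0.013 by edgeR). Both were close to the detection limit, and their groups overlapped. Over the 10 samples of vehicle and of nutlin, SLC18A2-AS1 totalled 4 and 45 counts and DDC-AS1 4 and 18. The kit was stranded but the strand setting of the counting is not given in the sources used here, so reads of a gene and of its antisense partner may not be told apart.

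Among genes that make and recycle tetrahydrobiopterin, beside GCH1, 5 of 7 fell and 2 were not called, with a median LFC of -0.33. QDPR, PCBD1, PCBD2 and SPR fell with LFCs of -0.41, -0.33, -0.56 and -0.33, and PTS and GCHFR did not pass the test (adjusted p = 0.12 and 0.30 by edgeR).

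Of 6 genes for the ascorbate and copper supply of DBH, 1 rose, 1 fell and 4 were not called, with a median LFC of -0.01, and 2 or 3 rose under the size factors of DESeq2, a minimum of 10 counts or library size only. ATOX1, a copper chaperone, fell from 40.3 ± 6.11 to 31.9 ± 3.22 CPM (SD, n = 10 each, LFC = -0.33 ± 0.07 SE, adjusted p = 0.00019 by edgeR).

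Of 7 genes for tyrosine entry and the other aromatic amino acid hydroxylases, 6 rose and 1 was not called, with a median LFC of 0.90. SLC7A8, a light chain of a neutral amino acid transporter, rose from 0.19 ± 0.11 to 2.29 ± 0.44 CPM (SD, n = 10 each, LFC = 3.49 ± 0.23 SE, adjusted p = 3.0e-14 by edgeR). TPH1, a tryptophan hydroxylase of serotonin synthesis, rose from 0.72 ± 0.17 to 1.81 ± 0.40 CPM (SD, n = 10 each, LFC = 1.32 ± 0.17 SE, adjusted p = 4.1e-08 by edgeR). All 3 serotonergic markers rose, and their summed level was 44.03 to 64.3 CPM in vehicle and 89.9 to 104 CPM in nutlin, nearly all of it FEV. All 4 cholinergic markers rose as well, from a summed level of 0.23 to 1.42 CPM to one of 1.91 to 4.57 CPM. Only 1 of these 4 averaged 1 CPM or more. Over the 10 samples of vehicle and of nutlin, SLC5A7 totalled 1 and 8 counts, CHAT 17 and 64, and ACHE 11 and 261. Over all genes tested 32.3% were called higher.

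Of 9 other genes of catecholamine degradation, 1 rose and 2 fell, with a median LFC of 0.02, whereas 3 rose and 1 fell with library size only. AKR1B1, aldose reductase, fell from 224 ± 23.7 to 114 ± 6.69 CPM (SD, n = 10 each, LFC = -0.98 ± 0.05 SE, adjusted p = 8.3e-17 by edgeR). MAOB remained at or below 0.15 CPM on average.

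Of 8 other monoamine, choline and acetylcholine transporters, 7 were tested, and 3 rose and 2 fell. SLC6A4, the serotonin transporter, rose from 0.63 ± 0.15 to 1.57 ± 0.29 CPM (SD, n = 10 each, LFC = 1.31 ± 0.16 SE, adjusted p = 4.3e-08 by edgeR). SLC18A3, the vesicular acetylcholine transporter, rose from 0.67 ± 0.30 to 1.34 ± 0.44 CPM (SD, n = 10 each, LFC = 1.01 ± 0.24 SE, adjusted p = 0.00065 by edgeR).

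Of 14 adrenergic and dopamine receptor genes, 10 were tested, and 7 rose and 3 were not called, with a median LFC of 0.96. ADRA1D rose from 0.39 ± 0.20 to 4.05 ± 1.12 CPM (SD, n = 10 each, LFC = 3.38 ± 0.23 SE, adjusted p = 1.0e-13 by edgeR), without overlap between the conditions. DRD4 rose from 0.65 ± 0.23 to 1.36 ± 0.22 CPM (SD, n = 10 each, LFC = 1.05 ± 0.18 SE, adjusted p = 8.7e-06 by edgeR). ADRA2A measured 23.7 ± 2.13 and 25.0 ± 3.18 CPM (SD, n = 10 each, adjusted p = 0.35 by edgeR).

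The other marker lists were mixed. Of 9 markers of mesenchymal-type neuroblastoma cells 5 rose and 3 fell, with summed levels of 1281 to 1414 CPM in vehicle and 894 to 1111 CPM in nutlin. Of 4 leukocyte markers 3 were tested and 2 rose, at summed levels of 0.71 to 1.79 and 4.72 to 7.15 CPM. Of 5 Schwann cell markers 4 were tested, 1 rose and 1 fell, at 1.49 to 3.33 and 3.15 to 4.32 CPM. Their part in the changes of the members was not tested.

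Variation of the members within a condition was also compared. Deviations of log2 CPM from the mean of the own condition were correlated over the 20 samples among the 7 members with at least 1 CPM in both conditions, as a description without a test of the 21 pairs. All genes of a sample share its library depth and normalization, which can make their deviations move together. The median Pearson r was 0.44, against 0 over all pairs of the 15168 genes averaging 1 CPM or more. It was 0.49 within vehicle and 0.04 within nutlin (all pairs 0.01 and 0), where 10 of the 21 pairs were at or below 0. The highest was DDC with SLC18A1 at r = 0.70 (Spearman's rho = 0.57), and r = 0.64 without the 2 samples farthest from the median of DDC. TH followed with SLC18A1 (r = 0.66, rho = 0.56) and with SLC6A2 (r = 0.66, rho = 0.67), at r = 0.55 and 0.62 without the 2 samples farthest from the median of TH. Other pairs rested on few samples: without the 2 samples farthest from the median of the first gene, DDC with MAOA went from r = 0.63 to 0.19 and TH with DBH from 0.44 to 0.06. The lowest was TH with GCH1 at r = -0.11 (rho = -0.22).

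TH and DDC gave r = 0.86 within vehicle and -0.07 within nutlin, a difference that was not tested. Vehicle replicate 4 was the lowest of its group in TH, SLC18A1 and DBH, and vehicle replicate 10 the highest in TH, DDC, SLC18A1, SLC6A2 and MAOA. Replicate 10 also had the lowest TMM factor of the 20 samples, 0.879, which raises every CPM of that library.

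Among 15167 genes averaging 1 CPM or more, those with within-condition deviations most like those of TH over the 20 samples were PIDD1 (r = 0.93), INKA2 (r = 0.90) and TBX2 (r = 0.89). The most like DBH were LRFN4 (r = 0.86), DDX56 (r = 0.82) and MSTO1 (r = 0.81). These are the extremes of a ranking and carry no test.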

How the data were processed

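RNA of NGP cells was sequenced as stranded, paired-end poly(A) libraries. The authors deposited, per sample, kallisto 0.42.4 values for 198968 transcripts of GRCh38 (Ensembl release 85). The deposited estimated counts were not normalized, the effective lengths were other values in bases, and the deposited TPM values were scaled by length and depth. Transcripts were matched by identifier to GENCODE release 44 (hg38), of which 191106 were matched, and the remaining 7862 entered no gene. Gene values are the rounded sums of the estimated counts of their transcripts.

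The test covered mRNA and lncRNA genes that had 1 count or more in both conditions, and was run with edgeR 4.0.16 in R 4.3.3 (quasi-likelihood, TMM, condition only, Benjamini-Hochberg adjustment over all 27697 genes, 5% FDR). The SE is the absolute LFC over the square root of F, and approximate intervals span 1.96 SE. DESeq2 1.42.0 and limma 3.58.1 served as alternatives. No sample pair held identical values. On simulated data of 27519 genes the test recovered 45 of 50 genes at an LFC of -1, 42 of 50 at -0.5, 40 of 50 at 0.5 and 49 of 50 at 1. Only 200 genes averaging 1 CPM or more were changed there, equally in both directions. The simulation therefore does not cover data in which 58.8% of genes are called and the calls move with the scaling. Named genes were all members, and of each other list those called that averaged 1 CPM or more with an absolute LFC of at least 1 (failing that, the called gene with the largest change). The members and lists were chosen with earlier results of these data known. Tables and plots used Python 3.11.15, pandas 2.3.3 and matplotlib 3.10.9. Some named genes and a motif are counted but not reported here.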

Additional observations from a re-analysis of the deposited data

Results flagged for a closer look

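In nutlin replicate 1 SLC18A1 measured 10.91 CPM, farther above the other 9 nutlin samples than the critical gap allows. In vehicle replicate 12 SLC18A2-201 measured 0.9023 CPM, while the other 9 vehicle samples were at 0. These were 2 of 18 groups of 10 samples examined, and chance flags about 1 in 20. The transcript ENST00000622544, which entered no gene, averaged 8.841 estimated counts per 1000000 over the 20 samples. It was examined because its counts complemented those of GCH1. The causes of these patterns were not tested.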

How the results depend on the processing

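TH, DDC and SLC18A1 remained called higher under each alternative. SLC18A2 was also called wherever it had a value (none with protein_coding transcripts only), but only 1 vehicle sample held counts of it. The minimum of 10 counts kept it mainly through the nutlin samples. In fits without vehicle replicate 12 it had no vehicle counts and stayed in because genes were filtered on all 20 samples. Its calls in these fits are therefore no support. With SLC18A2 the LFC was 8.09 in the 16 samples with shared replicate numbers, which lack vehicle replicate 12, and 8.08 without that sample alone, values that depend on the prior count. Members called lower numbered 1 in the main test, 0 with a minimum of 10 counts (PNMT was not tested) and at 1% FDR, and 2 with unmatched transcripts in the library sizes, in the 16 samples without a block, and with the complementary transcript added to GCH1. The call of GCH1 among these is no support, because the added transcript was picked for lowering the spread of GCH1. Leaving out 1 sample at a time gave 1 to 2 members called lower. The LFC of DBH turned positive with DESeq2 size factors (0.0133), DESeq2 (0.0134), a minimum of 10 counts (0.043), protein_coding transcripts only (0.0074) and library size only (0.16, adjusted p = 0.00041 by edgeR), and that of SLC6A2 with library size only (0.0916). Library size only was added after seeing the data, and gave 11560 genes higher and 5514 lower against 8935 and 7340. With limma voom DDC-209 (-0.13) and SLC6A2-205 (-0.0566) turned sign. DDC with SLC18A1 had a Spearman rho of 0.57. The ranks of levels by CPM per kb matched those by TPM. The effective lengths used for this were weighted by TPM, so the 2 scales could hardly differ and the match is no check. With the replicate block in 16 samples, 7555 genes were higher and 6760 lower, and SLC6A2 was called lower (-0.13, adjusted p = 0.022 by edgeR). The same 16 samples without the block also gave SLC6A2 an LFC of -0.13 (adjusted p = 0.022 by edgeR), so its call did not depend on the block. Over 15168 genes together the replicate numbers showed no pairing: the mean correlation of deviations in 8 pairs was 0.0035 and 0 pairs passed 0.1. Such a mean cannot exclude pairing in single genes. In the 16 samples TH had an adjusted p of 7.3e-10 with the block and 7.7e-07 without it (by edgeR). The median LFC of 15168 genes above 1 CPM was -0.08 under TMM and -0.03 under DESeq2 size factors. The causes of these changes were not tested.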
